A study of Mus musculus with 474 samples.

Results

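The genes described here encode 9 contractile and calcium-handling proteins of fast muscle fibres: Tnnt3, Tnni2, Tnnc2, Atp2a1, Casq1, Mylpf, Actn3, Pvalb and Myl1. They were chosen by gene symbol, as 9 of the 20612 genes in the tables, and all 9 were among the 18823 genes that passed the filter on low counts and were tested. The muscle came from Diversity Outbred (DO) mice, each carrying its own mixture of 8 founder genomes, with 1 library per animal, and the methods give it as gastrocnemius. All animals received the same high-fat, high-sugar (HFHS) diet, whose label gives 45 percent fat, and the methods state a single adult age at harvest, so no group on another diet or of another age was compared. The 10 groups are females and males of 5 numbered sets of animals: 48 females and 46 males for 17, 45 and 48 for 18, 49 and 50 for 19, 46 and 47 for 21, and 47 and 48 for 23. These numbers were read as outbred generations, an assumption, since the methods name only some of them. The groups differ in sex and in this number, and no allele or treatment is named that sets them apart.

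Fast fibres contract and relax quickly and rely mainly on glycolysis, and most of the mouse gastrocnemius consists of them. Calcium released from the sarcoplasmic reticulum binds troponin C, the troponin complex then moves tropomyosin on the thin filament, and myosin can pull on actin. Calcium is afterwards bound in the cytosol and pumped back into the reticulum. Fast and slow fibres use different genes for most of these parts, so that nearly every fast-fibre gene has a slow paralog.

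The thin filament genes were Tnnt3, which encodes the fast troponin T that ties the complex to tropomyosin (ENSMUSG00000061723, chr7:142498836-142516009, plus strand), Tnni2 for the inhibitory troponin I (ENSMUSG00000031097, chr7:142441808-142444410, plus strand) and Tnnc2 for the calcium-binding troponin C (ENSMUSG00000017300, chr2:164777161-164779967, minus strand). The calcium-handling genes were Atp2a1 for the pump SERCA1 (ENSMUSG00000030730, chr7:126445858-126463108, minus strand), Casq1 for calsequestrin, which stores calcium inside the reticulum (ENSMUSG00000007122, chr1:172209894-172219868, minus strand), and Pvalb for parvalbumin, which binds calcium in the cytosol (ENSMUSG00000005716, chr15:78191114-78206400, minus strand). The thick filament and Z-disc genes were Mylpf for the fast regulatory myosin light chain (ENSMUSG00000030672, chr7:127208890-127214298, plus strand), Myl1 for the fast essential light chains (ENSMUSG00000061816, chr1:66924295-66945404, minus strand) and Actn3 for alpha-actinin-3 (ENSMUSG00000006457, chr19:4861216-4877909, minus strand). Positions are whole genes in GRCm38. Of these genes 4 overlap a gene on the opposite strand, Tnnt3 with Prr33, Tnnc2 with Ube2c, Atp2a1 with Rabep2 and Casq1 with Gm17224, and because no use of strand is stated, reads of the overlaps cannot be told apart.

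The RefSeq promoter table (GRCm38.p6) held 6 of the genes. The 250 bases before the transcription start are shown for 4 of them, in capitals the E-box CAGCTG, a site type of muscle regulatory factors, or the MEF2 motif of the myocyte enhancer factors. Casq1 and Pvalb are shown because they form the most strongly correlated pair described below, and Atp2a1 and Mylpf because they lie on the same chromosome and fell together in males.
Casq1, chr1:172219896-172220145, minus strand: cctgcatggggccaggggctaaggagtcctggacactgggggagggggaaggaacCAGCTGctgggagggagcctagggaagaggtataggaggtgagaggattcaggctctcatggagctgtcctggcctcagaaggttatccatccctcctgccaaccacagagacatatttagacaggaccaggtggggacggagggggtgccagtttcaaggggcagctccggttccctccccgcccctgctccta
Pvalb, chr15:78206401-78206650, minus strand: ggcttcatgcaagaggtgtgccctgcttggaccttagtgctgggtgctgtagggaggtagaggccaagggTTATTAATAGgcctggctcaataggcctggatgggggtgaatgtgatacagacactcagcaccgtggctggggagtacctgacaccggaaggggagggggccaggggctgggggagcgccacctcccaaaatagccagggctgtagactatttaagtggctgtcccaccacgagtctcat
Atp2a1, chr7:126463074-126463323, minus strand: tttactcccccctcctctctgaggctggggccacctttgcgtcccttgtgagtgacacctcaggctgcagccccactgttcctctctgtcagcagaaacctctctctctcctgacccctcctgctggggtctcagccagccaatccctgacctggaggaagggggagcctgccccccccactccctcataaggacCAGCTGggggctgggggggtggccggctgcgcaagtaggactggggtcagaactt
Mylpf, chr7:127211358-127211607, plus strand: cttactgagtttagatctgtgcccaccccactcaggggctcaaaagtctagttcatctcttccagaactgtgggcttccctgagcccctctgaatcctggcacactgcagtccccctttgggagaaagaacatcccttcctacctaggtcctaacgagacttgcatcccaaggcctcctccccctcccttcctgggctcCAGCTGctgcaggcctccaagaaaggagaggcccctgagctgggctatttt
The E-box CAGCTG, which reads alike on both strands, lies at -195 to -190 from the start in Casq1, at -55 to -50 in Atp2a1 and at -51 to -46 in Mylpf, and was also found at -224 to -219 in Myl1. It occurred in 13.0% of all 32851 promoters of the table. Of the promoters of these genes, only the one shown for Pvalb held the MEF2 motif, at -180 to -171 from the start. The motif occurred in 2.92% of all promoters. A further Pvalb promoter, at chr15:78204238-78204487, is not shown. The windows of Mylpf, Myl1 and this further Pvalb promoter lie wholly inside the whole-gene bounds given above. Those of Atp2a1 and Tnnc2 lie partly inside them. The RefSeq starts of these entries thus differ from those bounds. The looser E-box CANNTG, which includes CAGCTG, was present in 6 of the 7 promoters listed for these genes and in 66.2% of all. The Pvalb promoter shown was the one without it. TATAAA was found in Myl1 alone and in 12.4% of all promoters. Neither the MEF3 motif TCAGGTT, present in 3.49% of all promoters, nor the CArG box, present in 1.47%, was found in these windows on either strand. A match of letters describes the sequence only.

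Depth and identity of the libraries set the precision of what follows. Total counts ranged from 35902416 to 165723723 between libraries, with a mean of 81518323 and an SD of 16235105. In 5 libraries the levels of Xist and Ddx3y fell outside the limits set for the sex in the label. The female DO048 did so only by Ddx3y at 0.134 CPM, and the male DO193 only by Xist at 13.8 CPM. The females DO153 and DO347 had Xist at 0.333 and 0.170 CPM and no Ddx3y, and the male DO308 had neither transcript. None of these libraries thus showed the full pattern of the other sex. Leaving all 5 out changed no call for the 9 genes between the sexes. Whether any animals were related is not given in the labels. The p-values measure the spread between animals taken as independent, and could be too small if some were related. The study used kinship as a random effect in its eQTL models, which was not done here. Muscle genes were abundant in all libraries: the 9 fast-fibre genes took 8.13% of all counts (5.72% to 10.3% over the animals) and the 6 myosin heavy chain genes a further 8.08%. The 8 slow paralogs took 0.293%. In bulk muscle, fewer fast fibres and less transcript per fibre cannot be told apart.

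Atp2a1 was the most abundant of the 9 transcripts per length of exon and Casq1 the least abundant. Mean levels, in CPM (counts scaled to the library total) per kb of exon, were 10201 ± 1136 for Atp2a1, 9073 ± 961.9 for Tnnt3, 5880 ± 685.8 for Tnnc2, 4643 ± 669.7 for Mylpf, 4014 ± 593.6 for Pvalb, 2881 ± 399.3 for Myl1, 2454 ± 346.8 for Tnni2, 2112 ± 353.6 for Actn3 and 981 ± 156.2 for Casq1 (SD over all animals). Lengths are the summed exons of each gene, which overstate the transcript where a gene has several isoforms, as Myl1 has. The order held within nearly every animal at 4 of the 8 steps: Tnnt3 was above Tnnc2 and Actn3 above Casq1 in all animals, and Tnnc2 was above Mylpf and Pvalb above Myl1 in 99.2% of animals each. Neighbours overlapped at the other 4 steps, where the first gene was above the next in 83.5% of animals for Atp2a1 and Tnnt3, 86.7% for Mylpf and Pvalb, 89.7% for Myl1 and Tnni2, and 82.9% for Tnni2 and Actn3. Of the 3 troponin subunits, which form a complex together, Tnnt3 was the highest and Tnni2 the lowest.

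The coefficient of variation over all animals was 10.6% for Tnnt3, 11.1% for Atp2a1, 11.7% for Tnnc2 and 15.9% for Casq1. On the variance stabilised (VST) scale, which is close to log2, the SD after removal of sex and generation ran from 0.149 in Tnnt3 and 0.150 in Atp2a1 to 0.231 in Casq1 and 0.247 in Actn3, beside a median of 0.203 over the 18823 genes tested. Sex took between 0.187% of the variance in Actn3 and 10.2% in Tnni2, and generation between 0.188% in Actn3 and 1.49% in Tnnc2.

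The first comparison asked whether fast-fibre transcripts differ between females and males. Males had more transcript of Tnni2, Myl1, Pvalb, Tnnt3 and Tnnc2 and less of Atp2a1, Mylpf and Casq1, all by less than 10% (edgeR's quasi-likelihood F-test, Benjamini-Hochberg adjusted over all genes). Between the sexes 8 of the 9 genes thus passed the test, 5 higher and 3 lower in males, and Actn3 did not. Of all 18823 genes tested, 55% passed, 24.4% higher and 30.6% lower in males, so that calls were common in this comparison. The median absolute log2 difference of all genes tested was 0.09, and 56.3% of the genes called differed by more than Tnni2, the fast-fibre gene that differed most. When libraries were scaled by total count alone, 30.8% of all calls were higher in males instead of 44.3%, and the median over all genes moved from -0.01 to -0.05.

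Among the troponins, Tnni2 ranged from 2256 to 4701 CPM in females with a median of 3507, and from 2291 to 6064 CPM in males with a median of 3826. The ranges overlapped almost wholly, and 78.2% of males lay above the female median. The log2 difference, male minus female, was 0.13 ± 0.02 (SE; edgeR adjusted p = 1.26e-11). Tnnt3 ranged from 9168 to 19358 CPM in females (median 13966) and from 10492 to 18428 CPM in males (median 14714), a log2 difference of 0.08 ± 0.01 (edgeR adjusted p = 1.14e-08). For Tnnt3, 73.2% of males lay above the female median, so the shift was small beside the spread between animals. Tnnc2 ranged from 3198 to 6227 CPM in females (median 4617) and from 3472 to 6827 CPM in males (median 4788), with a log2 difference of 0.05 ± 0.02 (edgeR adjusted p = 0.00809). The Tnnc2 call was lost when libraries were scaled by total count alone (log2 difference 0.02, adjusted p = 0.388) and when the slow paralogs entered the model (0.02, adjusted p = 0.224).

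Of the calcium-handling genes, the pump and the store were lower in males and the cytosolic buffer was higher. Atp2a1 ranged from 25185 to 47282 CPM in females (median 36892) and from 25250 to 47801 CPM in males (median 34069). Although these ranges nearly coincided, 78.2% of males lay below the female median, and the log2 difference was -0.10 ± 0.01 (edgeR adjusted p = 9.81e-12). Casq1 ranged from 745 to 3225 CPM in females (median 1962) and from 1164 to 2678 CPM in males (median 1863), and both the lowest and the highest animals were females. Its log2 difference was -0.07 ± 0.02 (edgeR adjusted p = 0.0043). Pvalb ranged from 2123 to 6514 CPM in females (median 3972) and from 2478 to 5580 CPM in males (median 4330), and here too the females reached farther in both directions. The log2 difference of Pvalb was 0.09 ± 0.02 (edgeR adjusted p = 2.30e-05), but 0.03 with the slow paralogs in the model (adjusted p = 0.187).

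The light chains of myosin differed in opposite directions. Myl1 ranged from 2760 to 7915 CPM in females (median 5689) and from 4205 to 10451 CPM in males (median 6203), with 77.0% of males above the female median and a log2 difference of 0.13 ± 0.02 (edgeR adjusted p = 1.80e-11). Mylpf ranged from 2544 to 7538 CPM in females (median 5008) and from 3184 to 6548 CPM in males (median 4790), with 62.3% of males below the female median and a log2 difference of -0.07 ± 0.02 (edgeR adjusted p = 0.00135). Actn3 ranged from 3167 to 8635 CPM in females (median 6069) and from 3437 to 8974 CPM in males (median 6159). The Actn3 difference of 0.02 ± 0.02 on the log2 scale had a 95% interval from -0.02 to 0.07 (edgeR adjusted p = 0.425), and its sign turned under total count scaling, at -0.01.

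**Figure D1:**
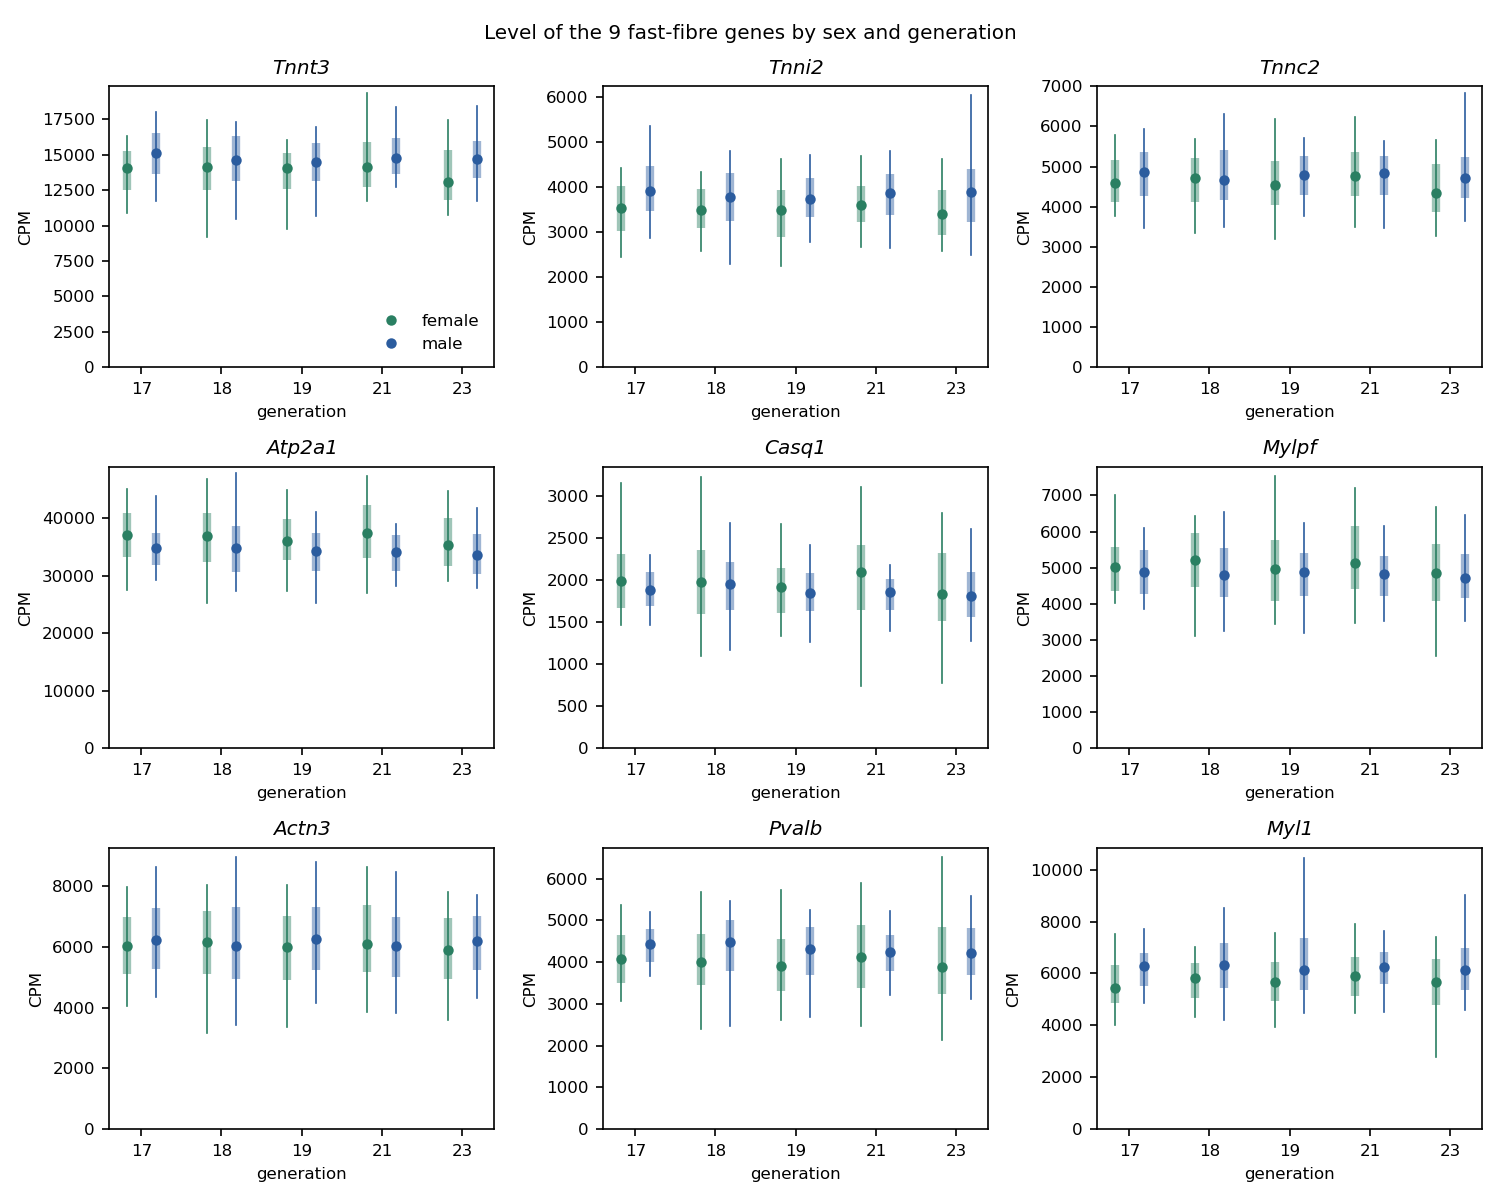
Level of each gene in CPM (vertical axes, from 0) by generation number (horizontal axes) in females (green) and males (blue). Points are group medians, thick bars the mean ± SD and thin lines the lowest and highest animal of 45 to 50 per group. The male points lie above the female ones in all 5 generations for Tnni2 and Myl1 and below them for Atp2a1, while the ranges of the sexes overlap throughout.

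The balance among the 9 genes also differed between the sexes. Each gene was divided by the geometric mean of the 9 in the same animal, which does not depend on how libraries are scaled, and the sexes were compared by permutation within generations (2-sided, 100000 resamples). The mean log2 ratio was higher in males for Tnni2 (by 0.10), Myl1 (0.09), Pvalb (0.07) and Tnnt3 (0.05). It was lower in males for Atp2a1 (-0.13), Mylpf (-0.09) and Casq1 (-0.09). Each of these 7 had p = 1e-05, the smallest that these permutations can give, and the same sign in 5 of 5 generations. For Tnnc2 the difference was 0.01 (permutation p = 0.120) and for Actn3 it was -0.01 (permutation p = 0.509). As all 9 ratios of an animal share their divisor, a rise in some ratios implies a fall in others.

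Within single generations and library blocks, fewer differences passed the test. The model fitted to 1 generation called 5 of the 9 genes in generation 17, 1 in 18 (Myl1), 4 in 19, 3 in 21 and 4 in 23. Of all 18823 genes tested, between 3872 (generation 19) and 4765 (generation 23) passed in these fits. Atp2a1 was lower in males in 5 of 5 generations and called in 4, with log2 differences from -0.15 to -0.08. Myl1 was higher in males in all 5 and called in 4, from 0.07 to 0.16, and Tnni2 was higher in all 5 and called in 3, from 0.08 to 0.18. Casq1 and Mylpf were lower in males in 5 of 5 generations but each was called in 1, generation 21. Tnnc2 was called in none and had the opposite sign in generation 21. Library numbers in the titles form 5 blocks of 91 to 96 libraries with 43 to 54 females each. Within blocks 2, 4, 2, 5 and 2 of the 9 genes were called, and all signs were as in the whole set except that of Actn3 in the last block. The block fits called between 3708 (block 1) and 5380 (block 4) of all 18823 genes tested.

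The slow paralogs differed between the sexes much more than the fast-fibre genes. Of the 8, 7 were lower in males and 1 was higher, with a median log2 difference of -0.44, beside 0.05 for the 9 fast-fibre genes and -0.01 for all genes tested. Tnni1, the slow troponin I, was lower in males by a log2 difference of -0.58 ± 0.05, Tnnc1 by -0.54 ± 0.04, Tnnt1 by -0.51 ± 0.04, Myl2 by -0.45 ± 0.04, Casq2 by -0.43 ± 0.05, Atp2a2 by -0.37 ± 0.04 and Myl3 by -0.30 ± 0.04. Actn2, the alpha-actinin of all striated fibres, was higher in males by 0.08 ± 0.03. Adjusted p from edgeR ran from 7.22e-30 for Tnni1 to 0.0061 for Actn2. The myosin heavy chains that define the fibre types also differed: Myh7, of type I fibres, was lower in males (-0.62 ± 0.04), as were Myh2, of type IIa fibres (-0.10 ± 0.03), and the developmental genes Myh3 (-0.68 ± 0.07) and Myh8 (-0.37 ± 0.13). Myh4, of type IIb fibres, was higher in males (0.05 ± 0.02), and Myh1, of type IIx fibres, did not pass the test (-0.06 ± 0.03, edgeR adjusted p = 0.0715).

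**Figure D2:**
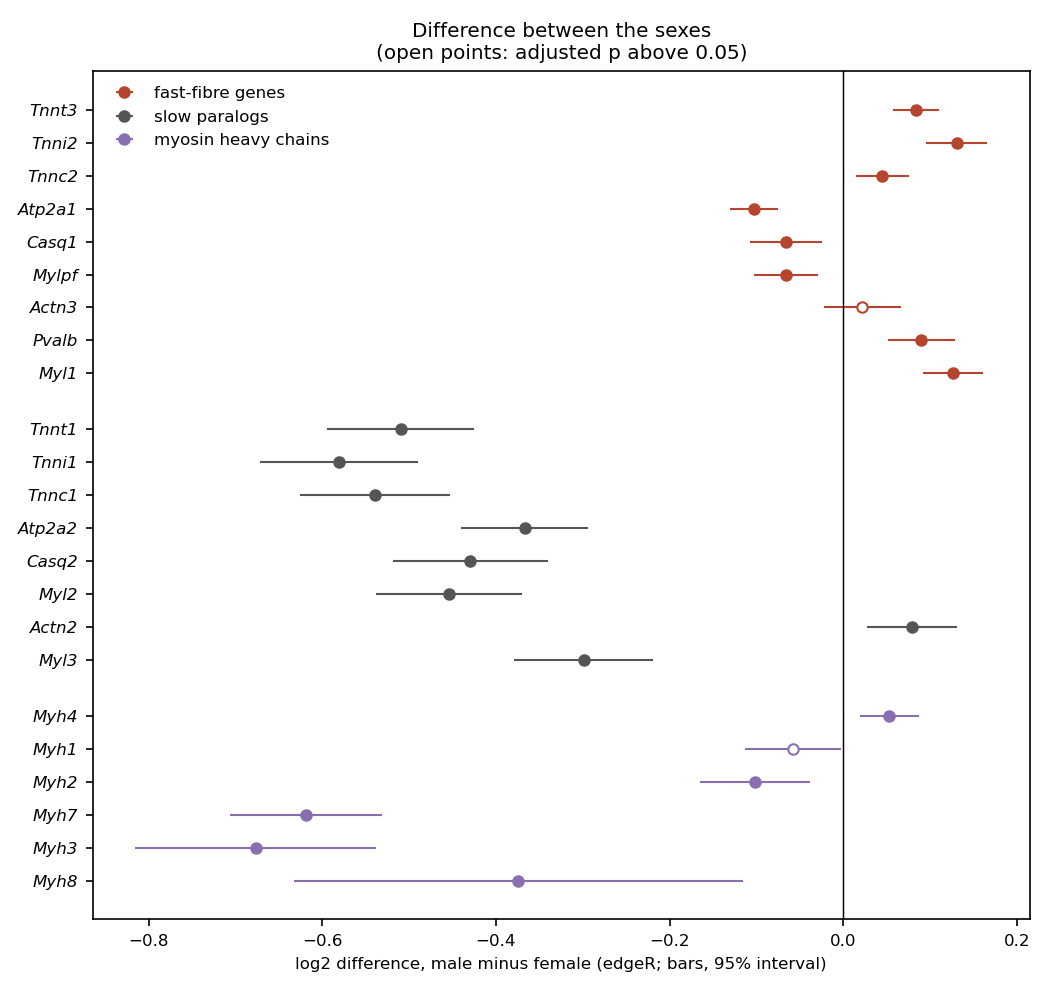
Log2 difference between the sexes, male minus female (horizontal axis), for the 9 fast-fibre genes, the 8 slow paralogs and the 6 myosin heavy chain genes (vertical axis); points are edgeR estimates over all animals, bars their 95% intervals, and open points did not pass the adjusted test. All fast-fibre genes lie between -0.10 and 0.13, whereas 7 slow paralogs lie between -0.58 and -0.30.

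The ratio of a fast-fibre transcript to its slow paralog was higher in males for 7 of the 8 pairs. The ratios were taken from CPM without regard to length, so that only the difference between the sexes is read from them. The mean log2 ratio of Tnni2 to Tnni1 was 4.93 ± 0.52 in females and 5.66 ± 0.58 in males (SD), a difference of 0.73, with 91.6% of males above the female median. For Tnnt3 and Tnnt1 the difference was 0.61, and for Tnnc2 and Tnnc1 it was 0.59, so that the 3 troponins had the largest differences among the 8 pairs. The others were 0.43 for Myl1 and Myl3, 0.40 for Mylpf and Myl2, 0.39 for Casq1 and Casq2, and 0.27 for Atp2a1 and Atp2a2. Actn3 and Actn2 gave -0.06.

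**Figure D3:**
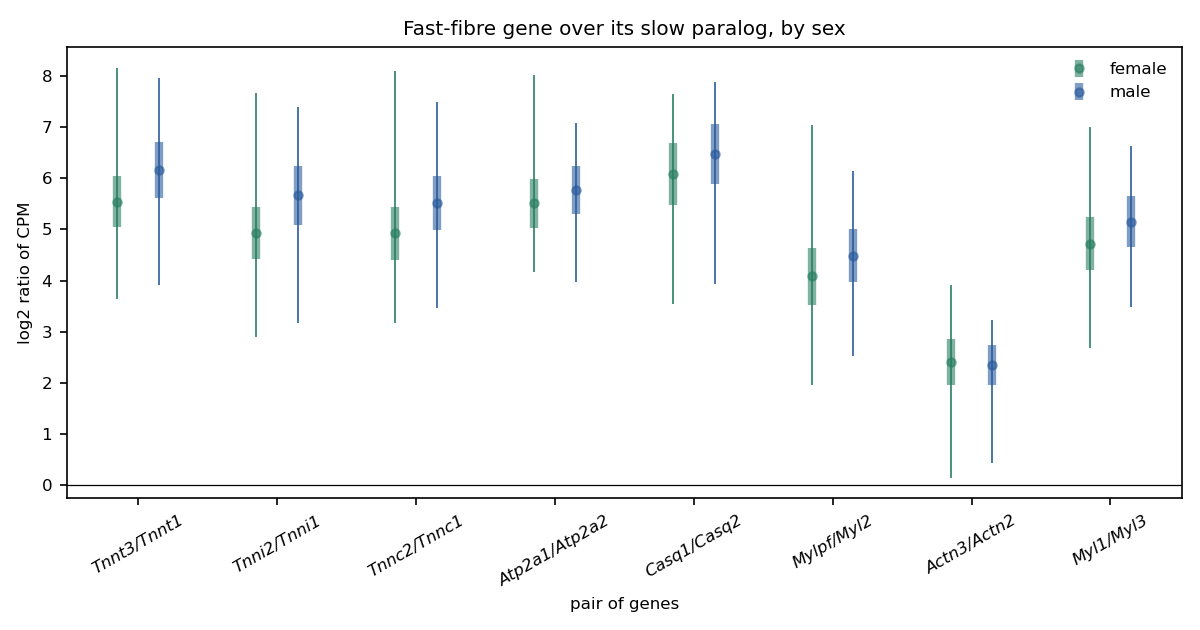
Log2 ratio of CPM of each fast-fibre gene to its slow paralog (vertical axis) for 8 pairs of genes (horizontal axis) in females (green) and males (blue). Points with thick bars are mean ± SD and thin lines run from the lowest to the highest animal. The male mean is above the female mean in 7 pairs, by 0.27 to 0.73, and below it by 0.06 for Actn3 and Actn2.

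Genes of other fibre parts and cell types also differed between the sexes. Over all genes tested, 24.4% were called higher and 30.6% lower in males, so calls in any list were common. Among 15 genes of calcium release and its control, 4 were higher and 6 lower in males. The largest differences were those of Sln (-0.88), Pln (0.43) and Mrln (0.35), which encode small peptides that inhibit the SERCA pump. These were the least abundant genes of the list, with means of 1.04, 9.91 and 21.8 CPM over all animals. Among 19 other sarcomere genes, a list that mixes fast forms, slow forms and others, 9 were higher and 8 lower in males. They were led by Tpm3 (-0.41), the slow tropomyosin, Mybpc1 (-0.31), the slow myosin-binding protein C, and Tmod4 (0.19), which caps thin filaments. Of 17 genes of glycolysis and phosphate transfer, 5 were higher, among them Pgk1 (0.17), and 5 lower, among them Aldoa (-0.17) and Eno3 (-0.15). Of 25 known regulators of fibre type, 16 were higher and 3 lower, with Myog at -0.997 and Eya4 at 0.39. Myog encodes a myogenic factor that rises in denervated muscle and Eya4 a co-activator of transcription. The differences of the named genes are log2 differences, male minus female, that passed edgeR's adjusted test.

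Of 8 adipocyte markers 7 were lower in males. The summed level of the 8 ran from 631.3 to 3736 CPM in females and from 671.2 to 2505 CPM in males. Car3 made up most of this sum, with a mean of 1344.9 CPM over all animals, so the sum mainly follows that gene. Whether the Car3 transcript came from adipocytes was not tested. All 6 endothelial markers and 4 of 5 smooth muscle markers were higher in males, with sums of 160.9 to 339.4 and 171.6 to 335.7 CPM for the endothelial list and of 243.9 to 637.8 and 303.3 to 700.5 CPM for the smooth muscle list in females and males. Of the other lists, 1 of 8 macrophage markers, 2 of 5 Schwann cell markers, 3 of 8 fibroblast and tendon markers and 1 of 4 satellite cell markers were lower in males, and 3 of 5 erythroid, 3 of 8 fibroblast and tendon and 2 of 4 satellite cell markers were higher. No adipocyte, endothelial or smooth muscle marker was at 0 in any library. Over all genes tested, 55% passed the test between the sexes, 24.4% higher and 30.6% lower in males. The part of these cell types in the differences of the fast-fibre genes was not tested.

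The second comparison was between generations. No fast-fibre gene changed between the 5 generation numbers, and none had an unadjusted p under 0.05 (edgeR, lowest p = 0.135, adjusted p from 0.429 to 0.977). DESeq2 and limma called none of the 9 either. The fitted levels of the 9 genes spanned between 0.03 (Actn3) and 0.06 (Casq1) on the log2 scale over the generations. Group medians also hold the sex difference. In the 10 groups they lay between 33552 and 37403 CPM for Atp2a1 and between 3888 and 4478 CPM for Pvalb. Over all genes tested, 7.56% passed this test. No slow paralog, no myosin heavy chain and no gene of the calcium release or glycolysis lists passed it. Named here after their values were seen, Lmod2, Myom2 and Lmod3 of the sarcomere list and Hdac4, Ppargc1a and Fnip1 of the regulators did pass. So did 3 adipocyte, 3 macrophage, 4 erythroid and 1 fibroblast marker.

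Whether the sex difference itself varied between generations was tested as an interaction. None of the 9 genes passed (edgeR adjusted p from 0.989 to 1, lowest unadjusted p = 0.159). Of all genes tested, 0.531% passed in edgeR. Limma called 0 of all 18823 genes tested, so its lack of calls says nothing about these 9 in particular. The sex difference of Casq1 and of Actn3 spanned 0.14 on the log2 scale over the generations, the widest of the 9, and that of Tnnt3 spanned 0.06, the narrowest.

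The fast-fibre genes also differed between library blocks. All 9 passed the test between blocks in edgeR, where 47.4% of all genes passed, with fitted log2 spans from 0.08 (Atp2a1 and Myl1) to 0.16 (Tnni2 and Pvalb). With limma on the VST 6 of the 9 passed, Tnnc2, Mylpf and Myl1 being the exceptions. The Myl1 call (edgeR adjusted p = 0.0428) was lost in 5 of 8 alternatives and the Actn3 call (adjusted p = 0.0347) in 1. Every block held both sexes, and with block in the model the same number of fast-fibre genes, 8, passed the test between the sexes.

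The 9 genes rose and fell together from animal to animal. On VST values after removal of sex and generation, all 36 pairs had a positive Pearson correlation, from 0.387 to 0.755 with a median of 0.564, and Spearman correlations from 0.370 to 0.746 (over all animals). Each pair had a permutation p of 1e-05 for both measures, the smallest that 100000 resamples can give, unadjusted for the number of pairs. Without the 2 animals farthest from the median of the first gene, r ran from 0.372 to 0.739. Over all pairs of tested genes the median r was -0.0009, and 1.01% of pairs reached 0.387. Among the 500 most abundant genes the median was 0.06 and 9.21% of pairs reached that value.

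The highest correlation was that of Casq1 and Pvalb (r = 0.755, rho = 0.732), both proteins that bind calcium on either side of the reticulum membrane. Atp2a1 and Actn3 followed (r = 0.734, rho = 0.729), then the troponins Tnni2 and Tnnc2 (r = 0.726, rho = 0.746). All 3 pairs of troponins were above the median, with 0.681 for Tnnt3 and Tnnc2. The light chains Mylpf and Myl1 reached 0.668. Lowest were Actn3 and Myl1 (0.387), Tnni2 and Casq1 (0.393) and Atp2a1 and Myl1 (0.431). Tnnt3 and Tnni2, whose centres lie 64.3 kb apart on chromosome 7, had r = 0.634, and Atp2a1 and Mylpf, 757 kb apart, had r = 0.600, while the top 3 pairs each joined different chromosomes.

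**Figure D4:**
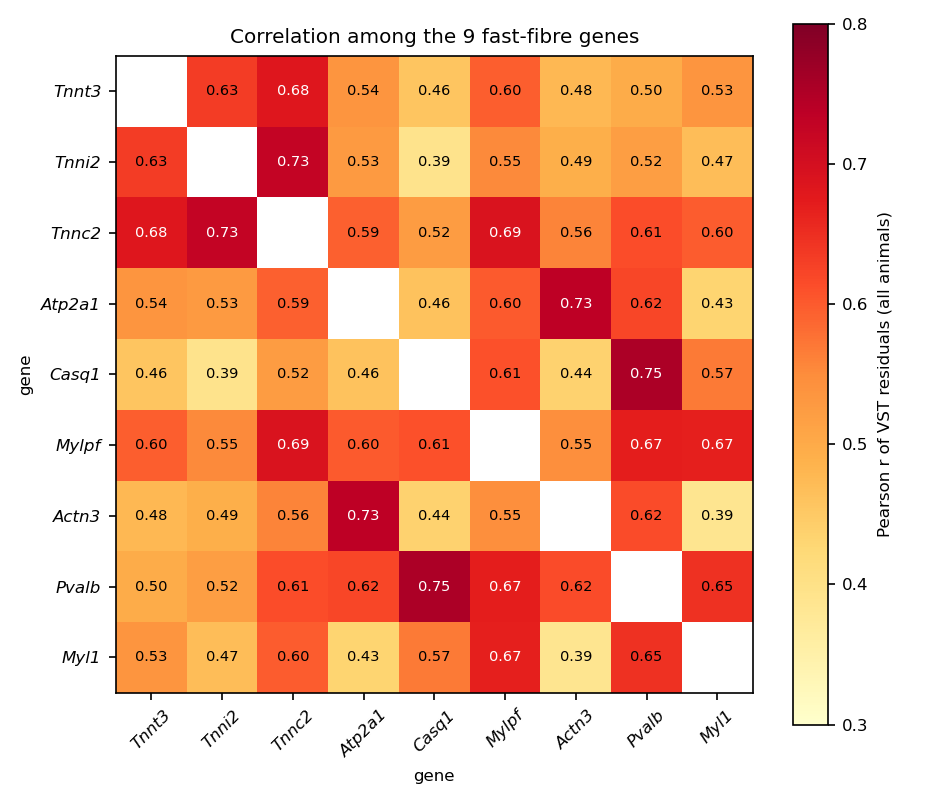
Pearson r between each pair of the 9 genes (both axes) over all animals, on VST values after removal of sex and generation; colour runs from 0.3 (pale) to 0.8 (dark). Every pair is positive, with the darkest cells for Casq1 and Pvalb, Atp2a1 and Actn3, and Tnni2 and Tnnc2.

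The correlation held within groups and library blocks. The median over the 36 pairs was 0.599 in females and 0.536 in males, between 0.443 and 0.624 in the 10 groups of one sex and generation, and between 0.533 and 0.631 in the 5 blocks. The lowest single r was 0.171 in a group, males of generation 23, and 0.276 in a block. With block removed along with sex and generation the median was 0.585. Correlations between transcripts of a bulk sample share the library, its depth and its mixture of fibres.

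Outside the 9 genes, tropomyosin 1 (Tpm1), the tropomyosin of fast fibres, had the most similar pattern. It was the closest of all other genes for Tnnt3 (r = 0.714), Tnnc2 (0.688), Casq1 (0.647), Mylpf (0.682), Pvalb (0.726) and Myl1 (0.605). Mybpc2, which encodes the fast myosin-binding protein C, came first for Atp2a1 (0.724) and Actn3 (0.734), and Myoz1, a Z-disc gene, for Tnni2 (0.655). With the mean standardised level of the 9 genes, the highest r were those of Tpm1 (0.826), Myh4 (0.735), Mybpc2 (0.728), Aldoa (0.716), Myoz1 (0.710), Pygm (0.710), Rtn2 (0.688), Camk2a (0.680), Tmod4 (0.672) and Park7 (0.662). Tpm1, Myh4, Mybpc2, Myoz1 and Tmod4 belong to the sarcomere, and Aldoa and Pygm encode aldolase and the muscle glycogen phosphorylase. The lowest r were those of Cd36 (-0.630), a fatty acid transporter, Lpgat1 (-0.578), Actr2 (-0.547), Mtpn (-0.538), Slc4a7 (-0.523), Ptbp3 (-0.515), Nceh1 (-0.514), Sdcbp (-0.512), Mob1a (-0.511) and Dipk2a (-0.501). Across all other genes tested r ran from -0.285 at the 5th percentile to 0.308 at the 95th.

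The glycolysis and phosphate transfer list had a median r of 0.622 with the mean of the fast-fibre genes, with 16 of 17 genes positive. The calcium release list had 0.332 (13 of 15) and the sarcomere list, which mixes fast and slow forms, 0.283 (14 of 19). The 8 slow paralogs were all negative, from -0.331 to -0.117. Of the myosin heavy chains 2 of 6 were positive. The adipocyte, macrophage, erythroid and endothelial markers were negative without exception, with medians of -0.196, -0.233, -0.119 and -0.241. Signs were mixed in the Schwann cell (median -0.039), satellite cell (0.031), smooth muscle (0.017) and fibroblast and tendon lists (0.048). They were also mixed among the regulators (0.031, 14 of 25 positive). Over all other genes tested the median r was -0.022. The part of these cell types in the correlation among the 9 genes was not tested.

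Each fast-fibre gene was only weakly related to its own slow paralog over animals. Among 8 pairs tested, r ran from -0.275 for Atp2a1 and Atp2a2 (rho = -0.262, permutation p = 1e-05 for both) to -0.067 for Tnni2 and Tnni1 (rho = -0.040, permutation p = 0.145 and 0.385). Actn3 and Actn2 had r = -0.266 and Casq1 and Casq2 r = -0.229 (rho = -0.210 and -0.171, permutation p of r = 1e-05 for each). Without the 2 farthest animals these were -0.289, -0.235 and -0.191 for the pump, actinin and calsequestrin pairs. Within the 5 library blocks the pump pair ran from -0.438 to -0.181, the calsequestrin pair from -0.339 to -0.117 and the actinin pair from -0.392 to -0.017. The troponin I pair ran from -0.351 to 0.088.

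Some fast-fibre genes were more than 4 residual SD below the mean in 2 females, whose libraries also departed over many other genes. Of all genes tested, 1.41% lay beyond 4 SD in either direction in DO349 and 0.595% in DO497, beside 0.0266% in the median animal and 8.35% in the animal with the most. In DO349, of generation 21, Casq1 was at 745.3 CPM (-5.89 SD) and Pvalb at 2487 (-3.17), while Atp2a1 was at 36806 (0.138) and Tnni2 at 3874 (0.672). In DO497, of generation 23, Casq1 was at 781 CPM (-5.44 SD), Myl1 at 2760 (-5.41), Mylpf at 2544 (-4.74) and Pvalb at 2123 (-4.24), while Atp2a1 at 35440 (-0.01) and Actn3 at 5594 (-0.30) were at the level of the other animals. Neither animal was low for all 9 genes. All 8 slow paralogs were above the mean in both animals, between 0.618 SD for Myl3 and 3.13 SD for Actn2 in DO349 and between 1.88 SD for Myl2 and 3.07 SD for Tnni1 in DO497. The erythroid markers of DO497 summed to 2762 CPM, the highest of all animals, beside 1229 CPM in the next and a median of 140. Its endothelial markers summed to 339.4 CPM, also the highest, beside 335.7 CPM in the next and a median of 224.2. Its fibroblast and tendon markers summed to 577.3 CPM, the lowest of all. DO349 ranked near the middle for erythroid markers and had fibroblast and tendon markers at 692.2 CPM, among the 3 lowest sums of all animals. The part of these cells in the low levels was not tested. Their total counts were both within 1 SD of the mean of all libraries. Without both animals the 36 correlations had a median of 0.561, and the same number of fast-fibre genes, 8, passed the test between the sexes.

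**Figure D5:**
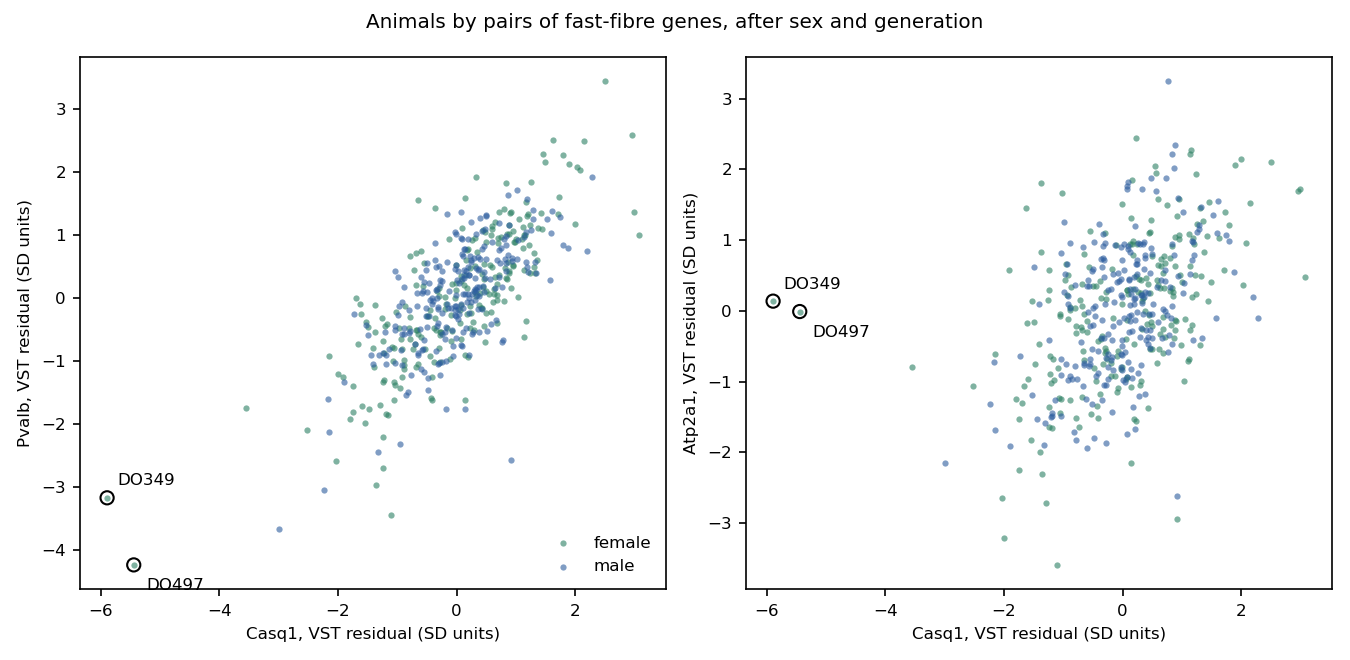
Residual VST of Pvalb (left, vertical axis) and of Atp2a1 (right, vertical axis) against that of Casq1 (horizontal axes) after removal of sex and generation, in SD units, for females (green) and males (blue). The circled females DO349 and DO497 lie more than 5 SD below the mean for Casq1 and more than 3 SD below it for Pvalb, but near 0 for Atp2a1.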

How the data were processed

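According to the methods of the study, read pairs from poly-A selected RNA were joined, treated as single reads and aligned to a transcriptome of the 8 founder strains. The authors deposited expected counts per gene, estimated by EMASE run in GBRS, which count read ends and are not normalized, and a VST score from DESeq2, a transform close to log2. GRCm38 and DESeq2 are named in the submitters' processing notes, and software versions are not given in the sources used here. The methods also describe a removal of batch effects and a DO wave, which is not in the labels and was not fitted.

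For testing, the expected counts were rounded and passed to edgeR 4.0.16 in R 4.3.3 (TMM, filterByExpr with a minimum count of 10, which left out 1789 genes, quasi-likelihood F-test). The sex test had generation as covariate, the generation test sex, and the interaction and block tests both. The Benjamini-Hochberg adjustment covered the 18823 genes tested, at a threshold of 0.05. DESeq2 1.42.0 and limma 3.58.1 were alternatives, beside other scalings, count filters, covariates, single generations and blocks, and sets without doubtful libraries. SE is the size of the log2 difference divided by the square root of F. CPM used the TMM-scaled total. Correlations used VST residuals after sex and generation in Python 3.11.15 with numpy 2.4.6. The edgeR step was tested on simulated data. Columns were matched to animals by name, also where their order differs from that of the samples (DO048 with DO308, DO309 with DO310). A library was taken to go against its label if a female had Xist below 50 CPM or any Ddx3y count, or a male had Xist above 10 CPM or Ddx3y below 10 CPM. Library blocks are runs of library numbers in the titles, which may or may not be preparation plates.

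The 9 genes, the gene lists and the tests were chosen with earlier results of these data known. The slow paralogs, the myosin heavy chains and the 9 genes were named whatever their values. Of the other fibre lists the 3 called genes with the largest sex difference are named, apart from 1 that is not reported here, and the cell type lists are given as counts. The gene most like each of the 9 and the 10 at each end of the correlation with their mean are named too. Blocks, extremes beyond 4 SD and the setting without 2 animals were described after the values were seen.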

Additional observations from a re-analysis of the deposited data

Results flagged for a closer look

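Of the 5 erythroid markers, 3 had a sex difference that varied between generations. For Alas2, the first enzyme of haem synthesis in red cells, the sex difference spanned 1.46 on the log2 scale over the 5 generations (edgeR interaction test, adjusted p = 1.11e-05), and for the globin gene Hbb-bs it spanned 1.10 (edgeR adjusted p = 0.00141). The related globin gene Hbb-bt spanned 1.30 (edgeR adjusted p = 0.00465). Without DO497, the animal with the highest erythroid sum and low fast-fibre levels, and DO349, the spans of Alas2, Hbb-bs and Hbb-bt were 0.93, 0.71 and 0.85 and the edgeR adjusted p were 0.0596, 0.428 and 0.457. With limma on the VST the adjusted p were 0.910, 0.958 and 0.999, and limma called 0 of all 18823 genes in this test. None of the 9 fast-fibre genes passed the interaction test under any of these settings.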

How the results depend on the processing

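Outside single generations and blocks, 13 alternatives called between 6 and 8 of the 9 genes between the sexes, and Tnnt3, Tnni2, Atp2a1, Casq1, Mylpf and Myl1 kept their sign and passed in the 12 with a test over all genes, unlike Tnnc2 (10 of 12), Pvalb (11 of 12) and Actn3 (none). Within generations 17, 18, 19, 21 and 23, 5, 1, 4, 3 and 4 genes passed, and within the 5 blocks 2, 4, 2, 5 and 2, each with fewer animals. Between 3708 and 5380 of all 18823 genes tested passed in these smaller fits. Signs turned for Actn3 under total count scaling (-0.00839), with the slow paralogs in the model (-0.0149), within generation 18 (-0.00537), generation 21 (-0.0653) and the last block (-0.00547) and on the genes' own scale (-0.0101), and for Tnnc2 within generation 21 (-0.00927). The cause was not tested. The median correlation was 0.631 in block 2 and 0.629 in block 3 against 0.564. No gene of the 9 passed between generations in 11 alternatives or the interaction in 8, and between 6 and 9 passed between blocks. Myl1 lost its block call with DESeq2's size factors (adjusted p = 0.0809), a library size without the 9 genes and the myosin heavy chains (0.0521), a minimum count of 50 (0.0641), limma (0.184) and without DO497 and DO349 (0.0719), and Actn3 with DESeq2's size factors (0.0619). The settings without these 2 animals and on the genes' own scale were chosen after seeing the data. No paired analysis was possible because each animal gave 1 library and no animal number occurs in more than one group.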
